A study of Mus musculus with 24 samples.

Results

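miR-22 is a microRNA (miRNA) whose hairpin yields 2 mature arms, miR-22-3p and miR-22-5p, and both were followed in the extracellular vesicles (EVs) of mouse serum after bone surgery. They were chosen by name from the 1966 mature miRNAs of the count table, on their own levels in these libraries, so their levels, fold changes and arm ratios are given as a description, and the calls of the fit are printed only to set them beside the other miRNAs. Both arms were among the 252 miRNAs that reached at least 10 CPM (read counts scaled to a common library total) in at least 12 of the 24 libraries, and both had counts in every library.

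A mature arm guides Argonaute proteins to transcripts that pair with its seed, a short stretch near its start, and lowers the output of those transcripts. miR-22-3p is the arm with most of the known targets, among them the transcript of the deacetylase Hdac4. The miRNA is expressed in many tissues, including heart, skeletal muscle and blood cells, and serum EVs collect miRNAs released by blood cells, vessels and solid organs.

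The study asked how the cargo of circulating EVs changes with time after surgical trauma, and small RNA was sequenced in 1 library per mouse. All animals were wild type male C57BL/6 mice of 14 to 16 weeks. The 6 Control mice received saline and no surgery. The other mice had an open fracture of the tibia that was stabilized with a pin under isoflurane anesthesia and buprenorphine, and serum was taken from 6 mice each 6 h (S6h), 24 h (S24h) or 72 h (S72h) afterwards. The S24h and S72h mice were also given analgesia every day. No group had anesthesia without surgery, so surgery, isoflurane and buprenorphine cannot be told apart in any comparison with Control. These Control mice belonged to the 6 h part of the experiment and those of the later times were not analysed here, so that time after surgery, analgesia and animal set cannot be told apart when S24h or S72h is set against Control. EVs were precipitated with a commercial kit from serum of clotted blood. Total miRNA counts per library lay between 63956 and 263211 in Control, 102568 and 471801 in S6h, 66652 and 143856 in S24h, and 65017 and 245013 in S72h.

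The mature sequences are shown because the arms act as separate molecules and the seed (bases 2 to 8, in capitals) sets which transcripts each can pair with. They are RefSeq sequences on build GRCm38.p6, written 5′ to 3′, and both arms were matched by name. miR-3966 is added as the mature mouse sequence closest to miR-22-3p.
mmu-miR-22-3p: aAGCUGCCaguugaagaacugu
mmu-miR-22-5p: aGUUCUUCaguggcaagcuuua
mmu-miR-3966: aGCUGCCAgcuguagaacugu

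The seeds of the arms differ from each other, and no other name among the 1679 mature mouse sequences searched carries either of them. miR-3966 differs from miR-22-3p at 2 of 21 aligned bases when it is shifted by 1 base, and it had 0 counts in the 24 libraries. miR-6935-3p and miR-7092-3p share bases 2 to 7 with miR-22-5p, and each of them had 0 counts as well. miR-300-3p, the sequence closest to miR-22-5p, differs from it at 6 of 19 aligned bases. Among the sequences searched, which cover 220 of the 252 tested miRNAs, neither arm had a near-copy with counts. The letters GGAG, a short motif known for the sorting of miRNAs into EVs, occur in neither arm and in 19 of the 220 tested miRNAs that have a sequence (8.64%). The GC content was 45.5% in miR-22-3p and 40.9% in miR-22-5p, with a median of 47.6% over those 220.

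The hairpin is shown with both arms in capitals, miR-22-5p first, to place them on their precursor. It lies on the plus strand of chromosome 11 at chr11:75463716-75463810 (RefSeq, GRCm38.p6). miR-22-5p occupies chr11:75463734-75463755 and miR-22-3p chr11:75463772-75463793. In the Gencode annotation of the same build the hairpin falls inside exon 2 of both transcripts of Mir22hg, a noncoding host gene at chr11:75461539-75466676 on the same strand, and not in an intron.
Mir22 hairpin: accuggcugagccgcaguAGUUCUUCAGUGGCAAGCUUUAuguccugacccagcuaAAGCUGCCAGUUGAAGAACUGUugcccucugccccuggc

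**Figure D1:**
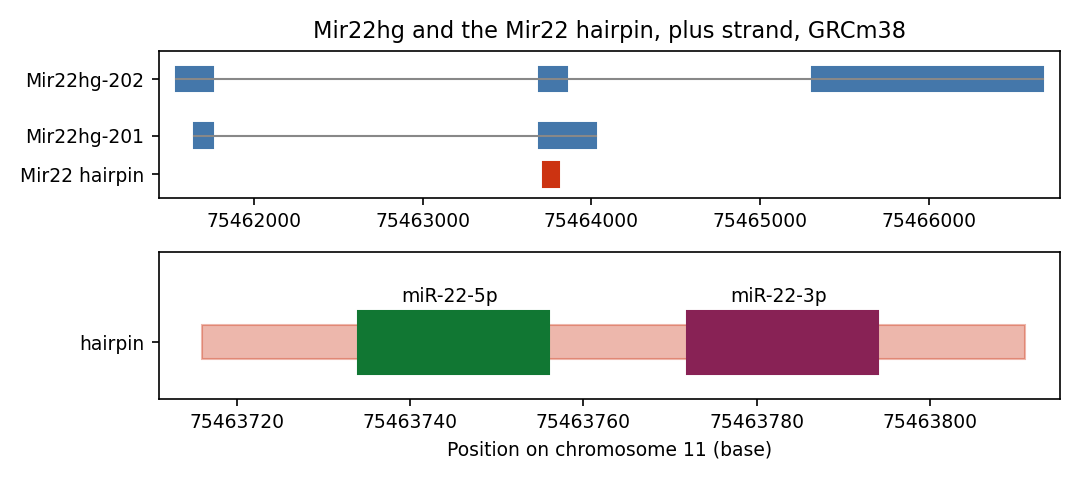
Map of the Mir22hg transcripts (upper panel, exons as boxes and introns as lines) and of the hairpin with its mature arms (lower panel), drawn to scale in bases of chromosome 11. The hairpin lies within exon 2 of both transcripts, and the arms cover 22 of its 95 bases each.

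miR-22-3p, the arm with the seed AGCUGCC, was the abundant one. In Control mice it ranged from 4597 to 16032 CPM with a median of 8659 CPM. In the S6h mice it ranged from 5789 to 16717 CPM with a median of 9745 CPM. The ranges of these groups overlapped over nearly their whole length, and replicate 4 of Control and replicates 4 and 6 of S6h were the high ones. In the S24h mice the lowest value was 1680 CPM, the median 3322 CPM and the highest 4796 CPM. Every S24h mouse lay below the Control median, and 5 of 6 lay below the lowest Control mouse. The overlap came from S24h replicate 6, whose 4796 CPM exceeded the 4597 CPM of Control replicate 2. In the S72h mice the lowest value was 2123 CPM, the median 3456 CPM and the highest 9425 CPM. Of these mice 5 of 6 lay below the Control median and 4 of 6 below the lowest Control mouse, while replicate 6 stood above the Control median. Fewer vesicles from a source and less miR-22-3p per vesicle cannot be told apart in such bulk libraries of serum EVs.

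By mean level miR-22-3p was ordered S6h, Control, S72h, S24h from high to low. The mean was 10639 ± 4180 CPM in S6h and 8939 ± 4256 CPM in Control (SD, n = 6 each), and the gap of 1699 CPM was smaller than either SD. The mean was 4404 ± 2738 CPM in S72h and 3162 ± 1111 CPM in S24h (SD, n = 6 each). That gap of 1242 CPM was smaller than the SD of the S72h mice, so these neighbours did not differ beyond their spread either. Between Control and S72h the gap was 4536 CPM, which exceeded the SD of each, although their ranges overlapped. S24h and S6h, the ends of the order, did not overlap, and the S6h median was 2.93 times the S24h median. The Control median was 2.61 times that of S24h and 2.51 times that of S72h.

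The position of miR-22-3p among the miRNAs of its own library moved in the same way. Ranked by counts within each library, it held a median rank of 29.5 in Control and 26.5 in S6h, against 51.5 in S24h and 45.5 in S72h. Its best rank was 17 in an S6h library and its worst was 62 in an S24h library. In these libraries it made up 1.43% and 0.168% of all counts. Counts of miR-22-3p were never low: the smallest was 112, in S24h replicate 4, with a 95% Wilson interval from 1397 to 2021 CPM. Such intervals cover counting error only.

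miR-22-5p, the arm with the seed GUUCUUC, was far less abundant, and its levels differed less between the groups than within them. In Control it had a lowest value of 15.6 CPM, a median of 376 CPM and a highest of 791 CPM. In S6h these values were 234, 469 and 621 CPM. Control spread more widely than any surgery group, with replicates 2 and 4 low and replicate 6 high. In S24h the lowest, median and highest values were 190, 318 and 678 CPM. In S72h they were 128, 491 and 731 CPM. All 4 groups overlapped, and the highest of the 24 values as well as the lowest came from Control mice.

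The mean level of miR-22-5p was 472 ± 206 CPM in S72h, 468 ± 145 CPM in S6h, 386 ± 293 CPM in Control and 355 ± 175 CPM in S24h (SD, n = 6 each). No neighbours in this order differed beyond their spread, and the whole distance from the first to the last group was smaller than the SD of Control. The counts behind these values were small. Control replicate 2, the smallest library, had 1 count of miR-22-5p, for which the 95% Wilson interval runs from 2.76 to 88.6 CPM. In S24h the counts ranged from 14 to 50 per library and in S72h from 10 to 179, so a difference of the size seen in miR-22-3p rests here on fewer reads.

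**Figure D2:**
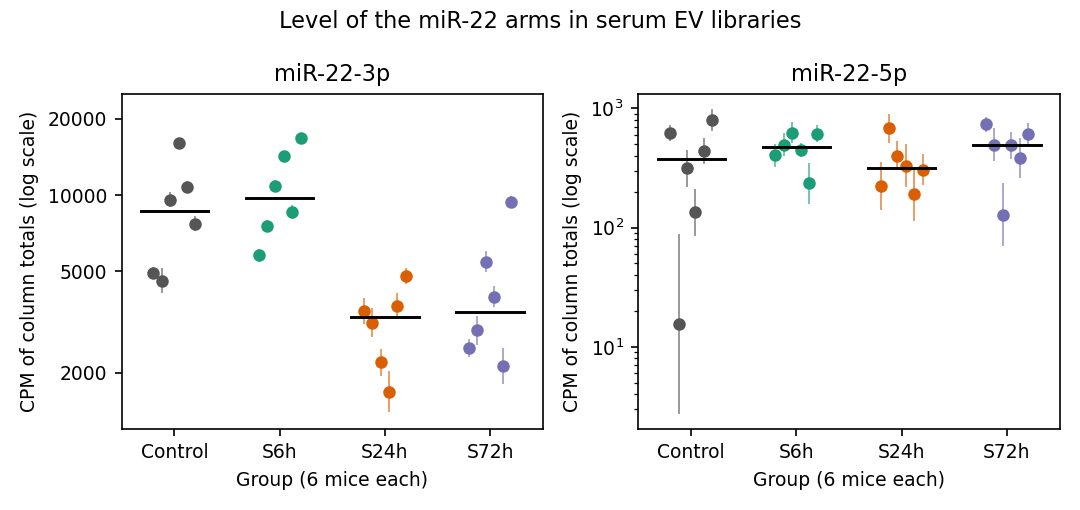
Level of miR-22-3p (left) and miR-22-5p (right) in CPM on log axes, with 1 point per mouse, 95% Wilson intervals as bars and group medians as black lines. The S24h points of miR-22-3p reach up to 4796 CPM and those of S6h begin at 5789 CPM, while the groups of miR-22-5p overlap.

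The arms were next compared within each library, where the scaling of libraries plays no part. Control libraries held between 7.90 and 294 counts of miR-22-3p per count of miR-22-5p, with a median of 27.6. S6h libraries held between 14.3 and 36.7, with a median of 22.4. The S6h ratios all fell inside the Control range, whose upper end is uncertain: the 294 of Control replicate 2 rests on 1 count of miR-22-5p, with an interval from 51.8 to 1669. S24h libraries held between 4.64 and 19.3, with a median of 10.6. All 6 lay below the Control median and 3 of them below the lowest Control ratio. S72h libraries held between 3.42 and 42.6, with a median of 7.04. Here 5 of 6 lay below the Control median and 3 below the lowest Control ratio, and replicate 3, with 10 counts of miR-22-5p, was the high one, with a share of miR-22-5p of 2.29% (95% Wilson interval 1.25% to 4.17%).

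On the log2 scale, with 0.5 added to each count, the mean ratio was 5.04 ± 1.87 in Control, 4.47 ± 0.58 in S6h, 3.18 ± 0.95 in S24h and 3.18 ± 1.28 in S72h (SD, n = 6 each). The difference of S24h from Control, -1.86, was larger than the SD within S24h and about equal to that within Control. The Control mean includes the 7.62 of replicate 2, which rests on 1 count of miR-22-5p. Pooled over the 6 mice of a group, miR-22-5p made up 4.89% of the counts of both arms in Control and 3.89% in S6h, and 9.62% in S24h and 11.1% in S72h. The larger share of miR-22-5p at the later times went with the lower level of miR-22-3p. In S24h the mean log2(CPM + 10) differed from Control by -1.44 for miR-22-3p and 0.40 for miR-22-5p. In S72h these differences were -1.08 and 0.75. For miR-22-5p the Control mean on this scale includes replicate 2, with 1 count at 15.6 CPM. The groups of miR-22-5p overlapped, and by mean and median CPM it was lower in S24h than in Control. In S72h its mean and median CPM were higher than in Control.

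**Figure D3:**
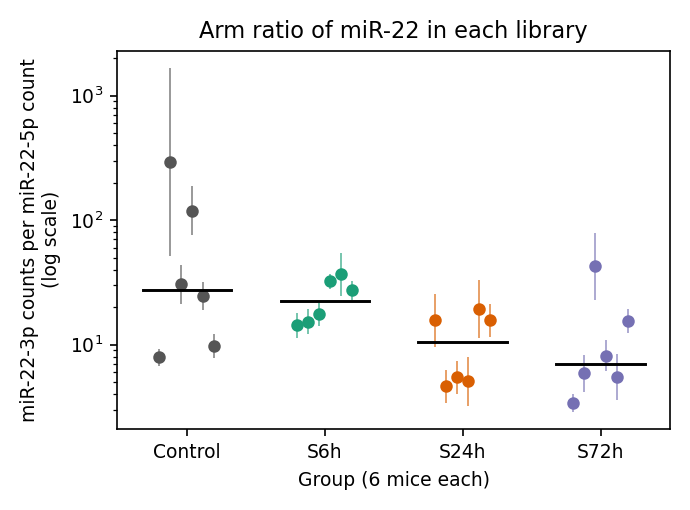
Counts of miR-22-3p per count of miR-22-5p in each library on a log axis, with 1 point per mouse, bars for the 95% Wilson interval of the counts and black lines for group medians. Medians are 27.6 (Control), 22.4 (S6h), 10.6 (S24h) and 7.04 (S72h), and the groups overlap.

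Arm ratios of other hairpins also moved between the groups. Both arms were tested for 50 hairpins. In S24h against Control the log2 ratio of 3p to 5p changed by -1.86 for miR-22, the 8th lowest value of the 50, whose median was -0.09 and whose range was -3.47 to 2.56. The median count of the scarcer arm over the 24 libraries was 2.5 to 29.5 in the 7 hairpins below miR-22 and 49 in miR-22. In S72h against Control the change of miR-22 was -1.86, the 4th lowest, beside a median of -0.06. In S24h against S6h it was -1.29, the 12th lowest, beside a median of -0.20. In S6h against Control it was -0.57, the 16th lowest, beside a median of -0.24. The changes of miR-22 against Control include Control replicate 2, with 1 count of miR-22-5p and a log2 ratio of 7.62. The changes and ranks without that library were not computed.

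Fold changes were taken from edgeR's quasi-likelihood fit of all 4 groups, with a call wherever the fold change reached 1.5 and the p adjusted by Benjamini-Hochberg over the 252 miRNAs was below 0.05. These values belong to the same contrasts on which the arms were chosen, and the counts of called arms are printed beside the share of all tested miRNAs without being read as support. The comparisons with Control share the same 6 Control libraries.

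For the earliest time after surgery, S6h was set against Control. The log2 fold change was 0.32 for miR-22-3p (standard error 0.36) and 0.32 for miR-22-5p (standard error 0.55), both smaller than their errors. edgeR called 0 of 252 miRNAs and neither arm (0%, with 0% lower and 0% higher). At an unadjusted p under 0.05 there were 9, and DESeq2 called 0 as well. S6h lay below Control without overlap for 0% of the tested miRNAs.

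For the response after 1 day, S24h was set against Control. miR-22-3p had a log2 fold change of -1.69 against Control (standard error 0.37) and was called, and it was lower in 6 of 6 mice than the Control median. miR-22-5p had -0.31 (standard error 0.56) and was not called, and the difference between the arms was not tested. By mean log2(CPM + 10) miR-22-5p was 0.40 higher in S24h than in Control, against the sign of the fit. The Control mean on that scale includes replicate 2, with 1 count of miR-22-5p at 15.6 CPM. Without that library the fitted log2 fold change of miR-22-5p was -0.56. So 1 of 2 arms was called, where 30 of the 252 miRNAs were (11.9%, of which 7.94% lower and 3.97% higher). Among all tested fold changes that of miR-22-3p was the 34th lowest. With CPM of column totals neither arm was free of overlap with Control, and 2.38% of the tested miRNAs lay lower without overlap. When library sizes were scaled by TMM, 4.37% did so, and miR-22-3p had a highest S24h value of 3956 CPM and a lowest Control value of 4257 CPM. Of the calls, 10 were higher and 20 lower under TMM, 18 and 19 under RLE, and 17 and 20 under column totals. Under these scalings the tested miRNAs had a median log2 fold change of -0.21, -0.06 and -0.03. Relative to that median, miR-22-3p changed by -1.49, -1.52 and -1.46 and miR-22-5p by -0.11, -0.12 and -0.10.

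In S72h against Control miR-22-3p had a log2 fold change of -0.97 (standard error 0.37) and miR-22-5p one of 0.44 (standard error 0.55). Neither arm was called, where 9 of 252 miRNAs were (3.57%, of which 1.59% lower and 1.98% higher), and 1.19% lay lower without overlap. DESeq2 called miR-22-3p, and so did edgeR without S72h replicate 6, the mouse with the highest level, where its log2 fold change was -1.26. The balance of calls was 5 higher and 4 lower under TMM, 4 and 4 under RLE, and 0 and 2 under column totals.

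Within the surgery series, S24h was set against S6h, where Control libraries enter only the filter, the scaling and the spread of the fit. Time, the daily analgesia of the S24h mice and any difference between the 6 h and later parts of the experiment cannot be told apart here either. miR-22-3p had a log2 fold change of -2.02 (standard error 0.38), was called, and lay lower without overlap, which held for 5.56% of the tested miRNAs. miR-22-5p had -0.64 (standard error 0.56) and was not called. Called were 51 of the 252 (20.2%, of which 13.9% lower and 6.35% higher), with 16 higher and 35 lower under TMM, 22 and 21 under RLE, and 19 and 18 under column totals. Relative to the median of all tested miRNAs, miR-22-3p changed by -1.78, -1.81 and -1.74 under these scalings. From 24 h to 72 h the log2 fold change was 0.73 for miR-22-3p (standard error 0.37) and 0.76 for miR-22-5p (standard error 0.56). Neither was called, where 1 of 252 miRNAs was (0.397%), miR-541-5p, named after its values were seen.

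The miRNAs most like miR-22-3p were taken as the 5 with the highest Pearson correlation of log2(CPM + 10) over the 24 libraries, as a description. The libraries share their groups and each value shares the total of its library. miR-27b-3p came first, with a Pearson r of 0.900 (Spearman's rho 0.901). It was followed by miR-143-3p (0.858), miR-29a-3p (0.833), miR-200a-3p (0.813) and miR-16-5p (0.771), while the median r over all 251 other tested miRNAs was 0.0753. After the group means were subtracted, r was 0.752 for miR-27b-3p, 0.616 for miR-143-3p, 0.576 for miR-29a-3p, 0.607 for miR-200a-3p and 0.474 for miR-16-5p, in the same libraries on which these miRNAs were picked. Without the 2 libraries farthest from the median of miR-22-3p, r was 0.922 for miR-27b-3p and 0.687 for miR-16-5p.

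miR-27b-3p, an arm encoded on another chromosome than miR-22, is shown as the first of the 5. Its mean was 8273 ± 2432 CPM in Control, 10379 ± 2500 CPM in S6h, 2499 ± 654 CPM in S24h and 4899 ± 3367 CPM in S72h (SD, n = 6 each). Like miR-22-3p it was called lower at 24 h, as were 7.94% of all tested miRNAs. Its log2 fold change against Control was -1.88 (standard error 0.34), and it was not called at 72 h. Among the other 4, miR-143-3p and miR-16-5p were called lower at 72 h as well (log2 fold change -2.38 and -1.01, beside 1.59% of all tested), and miR-200a-3p was not called at 24 h. With only the 2 groups compared, 0 miRNAs were called in S72h against Control, so both of these calls were lost. With a replicate block 1 miRNA was called there. At the other end, let-7b-5p had the lowest correlation with miR-22-3p (r = -0.879), an miRNA named after its values were seen.

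The other arm of the same hairpin was not among them. miR-22-5p took place 137 of 251 by its likeness to miR-22-3p, with a Pearson r of 0.0269 (Spearman's rho 0.0617). After subtraction of the group means it was 0.0559. The 3 miRNAs most like miR-22-5p were miR-330-3p (r = 0.593), miR-500-3p (r = 0.555) and miR-127-3p (r = 0.504), all weaker than the 5 of miR-22-3p. For miR-330-3p the rank correlation was 0.250, which placed it 45th, so that its likeness to miR-22-5p depends on the measure. Their mean level was at most 240 CPM, that of miR-330-3p in S24h.

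Lists of miRNAs that mark blood cells and organs were set beside miR-22. Of the erythroid list (miR-451a, miR-144 and miR-486 arms) 6 of 7 members were tested, and 3 were called lower and 0 higher in S24h against Control, with a median log2 fold change of -1.24, beside 7.94% called lower and a median of -0.21 over all tested miRNAs. These were miR-451a, miR-486a-5p and miR-486b-5p, the last being the most abundant, and the miR-486 copies are so alike that their counts may be split between them. All 6 had counts in every library, and against S6h only miR-451a was called lower in S24h (beside 13.9% of all tested), a call that was lost under RLE (adjusted p = 0.0704 in edgeR). The summed level of the list ranged from 104309 to 190543 CPM in Control (median 135836), 73130 to 124588 in S6h (median 116438), 29828 to 122463 in S24h (median 64401) and 42219 to 171005 in S72h (median 61879). Over the 24 libraries its log2 value had a Pearson r of 0.483 with miR-22-3p and 0.0203 with miR-22-5p. In S72h the mouse with the highest miR-22-3p, replicate 6, also had the highest erythroid sum, whereas in S24h the highest miR-22-3p, again in replicate 6, went with the lowest erythroid sum. With the list taken out of the totals, miR-22-3p was 10402 ± 4829 CPM in Control and 3381 ± 1142 CPM in S24h (SD, n = 6 each). That step changes only the totals and leaves the counts of miR-22-3p as they were, so the part of red cell RNA in its level was not tested.

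The platelet list (both arms of miR-126a and miR-199a, and miR-223-3p) had 5 of 5 members tested. In S24h against Control 1 was called lower, miR-199a-3p, and 0 higher (beside 7.94% and 3.97% of all tested). The median log2 fold change was -0.79 over the list and -0.21 over all tested, while miR-126a-3p had 0.64 and miR-126a-5p 0.58 without a call. Against S6h 2 were lower (beside 13.9%), miR-199a-3p and miR-223-3p, the latter not under RLE (adjusted p = 0.0704 in edgeR). Its summed level, with miR-223-3p as the most abundant member in Control and S6h and miR-126a-3p in S24h and S72h, had medians of 10032, 13152, 9357 and 9234 CPM in Control, S6h, S24h and S72h, and its r with miR-22-3p was 0.566. The leukocyte list had 6 of 6 members tested and 0 called against Control at any time (beside 0%, 11.9% and 3.57% of all tested at 6, 24 and 72 h). At 24 h its median log2 fold change was 0.32, beside -0.21 over all tested. Between S24h and S6h, miR-150-5p was higher and miR-223-3p, which both lists hold, was lower (beside 6.35% higher and 13.9% lower of all tested). The summed level, with miR-150-5p as the most abundant member in S24h and miR-223-3p in the other groups, had medians of 11736, 10282, 11768 and 10926 CPM in the same order, and its r with miR-22-3p was 0.237. With miR-22-5p, r was -0.282 for the platelet list and -0.435 for the leukocyte list. No marker of these lists that was tested was at 0 in a whole group, and their part in the level of miR-22-3p was not tested.

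Of the striated muscle list 5 of 7 members were tested. None was called against Control (beside 0%, 11.9% and 3.57% of all tested at 6, 24 and 72 h), and at 6 h their log2 fold changes had a median of 1.67, that of all tested being -0.02. Without a filter on low counts miR-1a-3p was called higher at 6 h (log2 fold change 1.59). Between S24h and S6h 3 were called lower, miR-1a-3p, miR-133a-3p and miR-499-5p (beside 13.9% of all tested, with medians of -1.97 and -0.23). The summed level, led by miR-1a-3p, had medians of 53278 CPM in Control, 117926 in S6h, 33230 in S24h and 27754 in S72h, and its r with miR-22-3p was 0.502. With miR-22-5p, r was 0.230 for the striated muscle list. miR-208b-3p was at 0 in all libraries and miR-208a-3p was at 0 in Control and S24h. The part of muscle RNA in miR-22-3p was not tested. For the hepatocyte list 1 of 2 members was tested, miR-122-5p, and it was not called at any time (log2 fold change -2.64 at 6 h, -1.98 at 24 h and 0.11 at 72 h against Control, adjusted p = 0.991, 0.176 and 0.975 in edgeR). Without a filter on low counts it was called lower at 6 h (-2.76). The summed level of the list ran from 3706 to 160092 CPM within Control alone (median 68536), with medians of 13174 in S6h, 18523 in S24h and 8064 in S72h. In S72h it was 299754 CPM in replicate 4 and at most 13192 CPM in the other mice, so the 0.11 at 72 h rests on 1 mouse. The r of this list was 0.00234 with miR-22-3p and 0.131 with miR-22-5p.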

How the data were processed

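Adapter removal (cutadapt), alignment to GRCm38 (Bowtie), selection of reads of miRNA length and counting by featureCounts on miRBase were done by the authors, as described in the paper. The deposited table gives raw counts, from 63956 to 471801 per library. The arms and the lists (erythroid, platelet, leukocyte, striated muscle and hepatocyte) were chosen with earlier results of these data known. Levels were CPM of column totals. Fold changes and calls came from edgeR 4.0.16 (limma 3.58.1, R 4.3.3), quasi-likelihood with TMM, 1 model of 4 groups. The code was run on simulated counts with the same dispersion for every miRNA, which does not measure its error rates in these data. DESeq2 1.42.0 was an alternative. Named were the arms, the 5 and 3 miRNAs most correlated with them, the 1 least correlated with miR-22-3p, list members called, most abundant, opposed to the rest or at 0, the closest sequences and those sharing bases 2 to 7, and miR-541-5p, miR-122-5p and miR-1a-3p as calls seen in the results. Other alternatives concerned the normalization, the filter, the libraries in the model, a block for the replicate number, the scaling, the added count and the similarity measure. Descriptions used Python 3.11.15, NumPy 2.4.6 and SciPy 1.17.1. No 2 libraries were identical. A further list is not reported here.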

Additional observations from a re-analysis of the deposited data

Results flagged for a closer look

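A value was looked at again when the gap between the highest or lowest mouse of a group and the next one, as a share of the whole range of log2(CPM + 10), of the log2 arm ratio or of the log2 total, exceeded Dixon's critical value for 6 samples. Of 36 groups checked (both arms, their ratio, total counts and the summed level of 5 lists, in 4 groups each), 2 passed, and chance gives about 1 in 20 groups, here 1.8. Neither was a value of miR-22. Without an added constant, an alternative chosen after seeing the data, 3 passed, the third being the low miR-22-5p of S72h replicate 3, at 128 CPM against 385 CPM or more in the other mice (gap 0.631 of the range). In Control the summed leukocyte list was low in replicate 1, at 6029 CPM against 10378 CPM or more in the other mice (gap 0.68 of the range). That library had 4924 CPM of miR-22-3p, the second lowest of Control. In S72h the summed hepatocyte list was high in replicate 4, at 299754 CPM against at most 13192 CPM in the other mice (gap 0.754 of the range). miR-22-3p was 3978 CPM of the column total there and 6637 CPM after TMM scaling, whose factor of 0.599 was the lowest of the 24 libraries.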

How the results depend on the processing

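The 310 alternative fold changes of the arms moved by less than the spread between mice and no called one changed sign. As a description of the values on which it was chosen, miR-22-3p had a log2 fold change at 24 h against Control of -1.69 to -1.50 over 7 settings and -1.84 to -1.39 with each library left out. Against S6h these ranges were -2.02 to -1.75 and -2.16 to -1.83. At 72 h a call appeared with DESeq2 (-1.03) and without S72h replicate 6 (-1.26). The numbers of called miRNAs moved more, and the cause was not tested. S6h against Control gave 2 without a filter on low counts, miR-122-5p and miR-1a-3p, named after their values were seen. S24h against Control gave 50 with DESeq2 and 20 to 42 with libraries left out. S72h against Control gave 21 with DESeq2, 2 with column totals, 18 with a mean of at least 100 CPM and 0 with only the 2 groups. With libraries left out it ranged from 1 (without Control replicate 2 or 5, or S72h replicate 5) to 14 (without S72h replicate 1). It was 2 without Control replicate 1 or S72h replicate 2 or 3, 3 without Control replicate 4 or 6, S6h replicate 1, 2 or 5 or S24h replicate 1, 3 or 4, and 5 without S24h replicate 6. S24h against S6h gave 60 with only the 2 groups and 57 with DESeq2. With libraries left out it gave from 32 (without S6h replicate 4 or 6 or S24h replicate 3) to 53 (without Control replicate 4). With DESeq2, 2 erythroid members were called at 72 h. With RLE, 0 erythroid, 1 platelet and 1 leukocyte members were called between S24h and S6h.

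No pairing of the mice by replicate number was seen. Deviations from the group means had a mean r of 0.0027 over the 36 pairs with the same number and -0.00056 over other pairs. Of those 36 pairs, 7 had an r over 0.1, and 6 of 24 libraries correlated best with their own number. With a replicate block S72h against Control gave 1 call, S24h against Control 32 and S24h against S6h 43, and no call of an arm changed. Depth limits the precision of miR-22-5p, with a median of 33 counts in S24h.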
